A study of Mus musculus with 6 samples.

Results

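Meg3, Kcnq1ot1 and Gnas are 3 imprinted mouse genes, transcribed from one parental copy of the chromosome in some or all tissues. Their peaks were all rows of the deposited table whose gene name, split where several names are joined, was one of the 3, which gave 24 of 55449 peaks: 4 for Meg3, 6 for Kcnq1ot1 and 14 for Gnas. None of the 24 carried a further gene name. The table came from eCLIP, an assay that crosslinks proteins to RNA in cells by ultraviolet light, recovers 1 protein with an antibody, and sequences the RNA fragments that come with it. It was run in MLTC-1 cells, a tumour line of mouse testicular (Leydig) cells, all irradiated at 254 nm with 400 mJ/cm2. There were 6 libraries: 2 immunoprecipitations with an antibody against ZFP36L2 and their 2 inputs, and 1 immunoprecipitation with rabbit IgG, the negative control, and its 1 input. No genotype, agent or time set the groups apart. The immunoprecipitations differed by antibody and also by numbered sample, the ZFP36L2 ones being MLTC-1_4 and MLTC-1_5 and the IgG one MLTC-1_6, so antibody and sample cannot be told apart.

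The table compares ZFP36L2 with IgG and gives each peak a log2 fold change with its p-value before and after adjustment. Peaks with an adjusted p under 0.05 are called enriched here where the log2 fold change is 1 or higher, and depleted where it is -1 or lower. Values of single libraries are not in it, so each peak has 1 value, no spread between libraries can be shown, and read depth is unknown. The direction, ZFP36L2 over IgG, follows the name of the table. Because the libraries came from bulk cells, fewer cells of a type and less RNA per cell cannot be told apart, and a fold change describes RNA recovered with one antibody relative to the other, not the level of a transcript.

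ZFP36L2 is an RNA-binding protein with CCCH zinc fingers, and its family is known for binding AU-rich elements of mRNAs and promoting their decay. Meg3 is a long noncoding RNA of the imprinted Dlk1-Dio3 domain, expressed from the maternal chromosome together with the further noncoding RNAs Rian and Mirg and many microRNAs. Kcnq1ot1 is a long, mostly unspliced nuclear RNA transcribed antisense to Kcnq1 from the paternal chromosome, and silences neighbouring genes in cis. Gnas encodes the stimulatory G protein alpha subunit, which couples receptors such as the luteinizing hormone receptor of Leydig cells to adenylyl cyclase. The Gnas locus has alternative first exons, each with its own promoter, spliced to shared downstream exons.

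The 3 genes went different ways. Meg3 had 3 of its 4 peaks enriched and 1 depleted, Kcnq1ot1 had none enriched and 4 of 6 depleted, and Gnas had 2 of 14 enriched and none depleted. Of all tested peaks 2.22% of peaks were enriched and 5.44% depleted. In the authors' deposited table the median log2 fold change was 3.12 over the Meg3 peaks, -3.56 over the Kcnq1ot1 peaks and 0.93 over the Gnas peaks, beside -1.06 over all peaks. With 1 value per peak, no test of the difference between the genes was made. Neighbouring peaks of one transcript are not replicates of one another.

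Meg3 (30.7 kb on the plus strand of chromosome 12, from 109540996 to 109571729 in RefSeq on GRCm38.p6, the assembly called mm10) held its enriched peaks in the middle and the 3′ part of the gene. The first of them, 59 nucleotides long at chr12:109556167-109556225, began 15.2 kb from the RefSeq start and had a log2 fold change of 3.55, an 11.7-fold difference, in the authors' deposited table (adjusted p = 4.8e-49). It ranked 51 by p-value among the 1231 enriched peaks of the table. At chr12:109559093-109559141, 18.1 kb from the start, the log2 fold change was 3.28, or 9.71-fold, in the authors' deposited table (adjusted p = 3.5e-25). The last, at chr12:109567926-109567971 and 26.9 kb from the start, had 2.95, or 7.73-fold, in the authors' deposited table (adjusted p = 7.2e-19). These 3 log2 fold changes lie within 0.60 of one another.

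The remaining Meg3 peak was at the opposite end of both the gene and the scale. It covered 27 nucleotides at chr12:109542269-109542295, 1.27 kb from the start, and had a log2 fold change of -2.18, 4.53-fold lower with ZFP36L2, in the authors' deposited table (adjusted p = 0.03). At an adjusted p under 0.01 this call is lost and Meg3 has 0 depleted peaks, while its 3 enriched peaks stay called. All 4 Meg3 peaks are of the class Other, which also holds peaks of protein-coding genes, and the class does not say whether a peak of Meg3 is exonic or intronic.

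Another 3 peaks lie inside the RefSeq span of Meg3, on its strand, under the names of microRNAs. They were looked for after the values were seen. The peaks named for mir-770, a microRNA whose hairpin lies within the Meg3 gene, were both enriched. In the authors' deposited table, the peak at chr12:109564040-109564082 had a log2 fold change of 3.77, or 13.6-fold (adjusted p = 1.7e-31). Its neighbour at chr12:109564154-109564180 had 3.16, or 8.94-fold, in the authors' deposited table (adjusted p = 2.5e-23). A peak named for mir-1906-1, at chr12:109544273-109544305 and 3.28 kb from the Meg3 start, had -0.95 and was not called in the authors' deposited table (adjusted p = 1).

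Neither enriched peak covers the microRNA it is named for. The mature sequences are shown because they fix where the named feature lies, with the seed (bases 2 to 8) in capitals, as RefSeq gives them on GRCm38.p6.
mmu-miR-770-5p: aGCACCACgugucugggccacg
mmu-miR-770-3p: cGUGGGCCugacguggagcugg
The 5p arm lies at chr12:109563710-109563731 and the 3p arm at chr12:109563744-109563765, inside a hairpin at chr12:109563692-109563785. The peaks begin 255 and 369 nucleotides beyond the 3′ end of that hairpin. Of the 63 peaks of the class miRNA in the table, 16 overlap a RefSeq microRNA entry on their strand, 43 lie within 500 nucleotides of one without touching it, and 4 do neither. This class had 3 enriched peaks (4.76%) and 4 depleted ones (6.35%), and 2 of the 3 enriched are those named for mir-770.

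Counted by position rather than by name, the Meg3 span holds 7 peaks, of which 5 were enriched. All 5 lie between 109556167 and 109567971, downstream of both RefSeq starts of Meg3, at 109540996 and 109545398. The depleted peak and the mir-1906-1 peak, the only other ones in the span, lie between those starts. Over all 7 peaks of the span the median log2 fold change was 3.16, and over the 5 enriched ones 3.28, in the authors' deposited table.

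**Figure D1:**
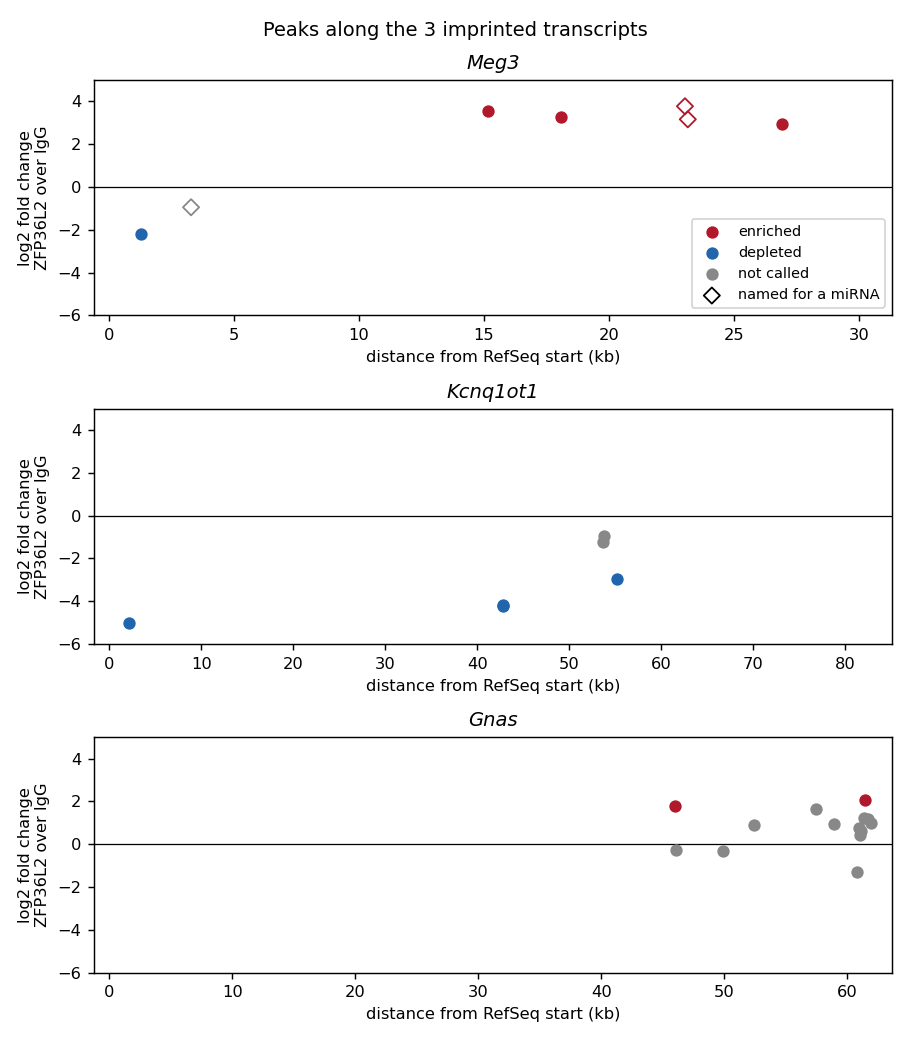
Log2 fold change of ZFP36L2 over IgG (vertical axis) against the distance of each peak from the RefSeq start of its gene in kb (horizontal axis), for Meg3, Kcnq1ot1 and Gnas. Each symbol is 1 peak, red where enriched, blue where depleted and grey where not called, and open diamonds are peaks named for a microRNA inside Meg3. The 5 red symbols of Meg3 lie from 15.2 to 26.9 kb, every Kcnq1ot1 peak is below 0, and all Gnas peaks lie beyond 46.0 kb; peaks that touch can cover one another.

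Kcnq1ot1 (83.4 kb on the minus strand of chromosome 7, from 143213111 to 143296547) had only negative log2 fold changes. The peak nearest the 5′ end, 61 nucleotides at chr7:143294352-143294412, began 2.13 kb from the RefSeq start and had -5.04, 32.9-fold lower with ZFP36L2, in the authors' deposited table (adjusted p = 7.1e-10). It ranked 89 by p-value among the 3019 depleted peaks. A pair of touching peaks 42.8 kb from the start came next. In the authors' deposited table, the part at chr7:143253722-143253757 had -4.16 (adjusted p = 6.9e-07) and the part at chr7:143253711-143253721 had -4.24 (adjusted p = 5.8e-07).

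Farther along the transcript the values were closer to 0. Another touching pair, 53.7 kb from the start at chr7:143242835-143242879 and chr7:143242821-143242834, had -1.23 and -0.94 in the authors' deposited table and was not called (adjusted p = 1 for both). The peak nearest the 3′ end, at chr7:143241336-143241376 and 55.2 kb from the start, had -2.96, or 7.78-fold lower, in the authors' deposited table (adjusted p = 5.0e-04). The uncalled pair therefore sits between depleted peaks, and its values are near the median of the class Other, -1.33. Both parts of each touching pair had the same call, and with touching peaks merged the transcript has 4 stretches, 3 of them depleted.

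No peak of another name lies in the Kcnq1ot1 span on either strand. Kcnq1, a potassium channel gene whose span contains Kcnq1ot1 on the opposite strand, had 4 peaks, all outside the Kcnq1ot1 span. One of them, in coding sequence at chr7:143194215-143194293, was depleted, at -3.00 on the log2 scale in the authors' deposited table (adjusted p = 6.6e-06).

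All 14 Gnas peaks (gene at 174284320 to 174346744 on the plus strand of chromosome 2, 62.4 kb) are classed as coding sequence. The best supported, 47 nucleotides at chr2:174330325-174330371, had a log2 fold change of 1.80, or 3.48-fold, in the authors' deposited table (adjusted p = 0.0015). The largest, 17 nucleotides at chr2:174345759-174345775, had 2.05, or 4.14-fold, in the authors' deposited table (adjusted p = 0.0071). Both were smaller than any enriched value of Meg3, and 1 enriched Gnas peak is left when the fold threshold is raised to 2 on the log2 scale.

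The Gnas peaks not called were spread around a value above 0. Next in order came chr2:174341799-174341890, with 1.65 in the authors' deposited table (adjusted p = 0.11). The other 11 uncalled peaks ranged from -1.32 to 1.24 in the authors' deposited table, with adjusted p-values from 0.41 to 1. In all, 11 of the 14 Gnas peaks were above 0, as were 29.7% of the 20515 coding peaks of the table, whose median was -0.72. Only 3 Gnas peaks had an unadjusted p under 0.05, the 2 enriched ones and the one at 1.65.

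Adjacent Gnas peaks could differ. The enriched peak at 174330325 is touched on its 3′ side by chr2:174330372-174330436, which had -0.27 in the authors' deposited table (adjusted p = 1). The enriched peak at 174345759 lies 29 nucleotides beyond chr2:174345665-174345729, which had 1.24 in the authors' deposited table (adjusted p = 0.6). Thus 1 enriched stretch has a neighbour close to 0 and the other has a neighbour on its own side of 0.

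RefSeq lists 4 starts for Gnas, at 174284320, 174327749, 174327768 and 174330006, and every peak lies downstream of all 4. The peak nearest the 5′ end begins 319 nucleotides after the last of these starts, so none of the table's Gnas peaks lies in sequence between the first start and the last. Of the 14 peaks, 8 fall within 2 kb of the RefSeq end, between 174345095 and 174346398, with 1 enriched among them and a median of 0.86 per the authors' deposited table. The other 6, from 174330325 to 174343259, also held 1 enriched peak and had a median of 0.93 per the authors' deposited table. The enriched peaks of Gnas thus lie 1 at the 5′ end of the stretch that holds its peaks and 1 near its 3′ end. No peak of another name lies in the Gnas span.

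**Figure D2:**
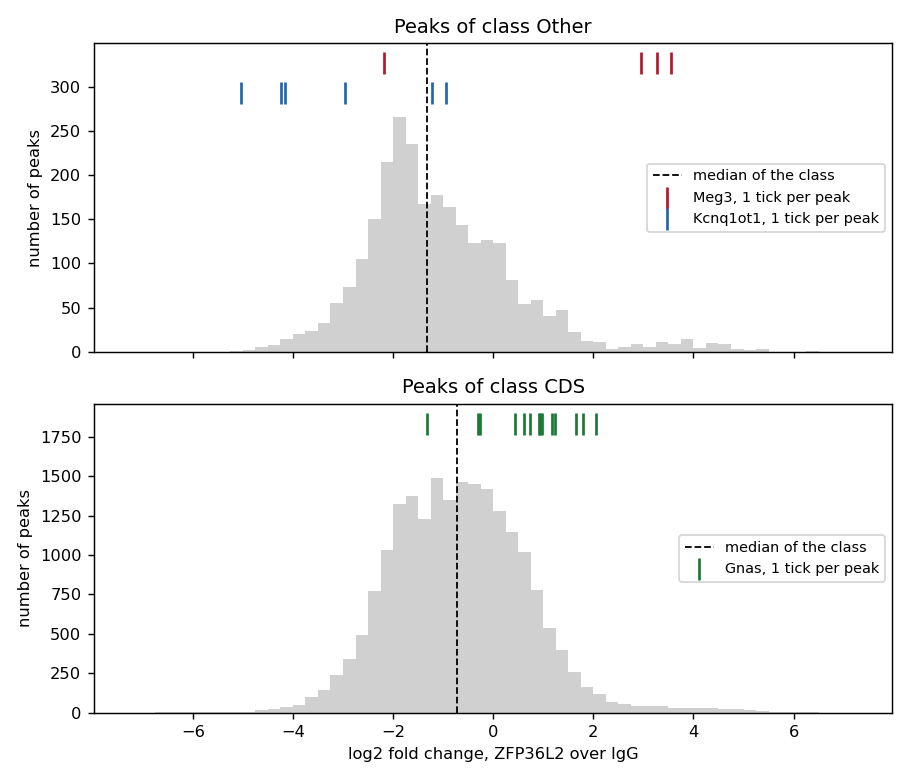
Number of peaks (vertical axis) by log2 fold change of ZFP36L2 over IgG (horizontal axis) for all 2645 peaks of the class Other (top) and all 20515 coding peaks (bottom). Dashed lines are the class medians, -1.33 and -0.72, and coloured ticks are single peaks of Meg3, Kcnq1ot1 and Gnas. The 3 enriched Meg3 peaks lie in the thin right tail of the class Other, 4 Kcnq1ot1 peaks in its left tail, and 11 of 14 Gnas peaks above 0.

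The classes of these peaks had background shares of their own. The class Other had 3.36% of peaks enriched and 6.09% depleted, and coding peaks 2.35% and 3.74%. Among the 1039 gene names with 4 peaks, 7 had 3 or more enriched, Meg3 included. Of the 617 names with 6 peaks, 8 had at least 4 depleted, Kcnq1ot1 included, and of 101 names with 14 peaks 8 had at least 2 enriched, Gnas included. These counts describe the table and are not a test. Meg3 is also 1 of the 107 gene names with both kinds of call.

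The genes most like each of the 3 were taken as the 3 names with the same number of peaks and the nearest median log2 fold change. For Meg3, over 4 peaks, they were Calr, the chaperone calreticulin (median 3.33 in the authors' deposited table), Metap2, a methionine aminopeptidase (2.88), and Tspyl2, a nucleosome assembly family member (2.60). Calr and Metap2 had all 4 peaks enriched, and none of the 3 had a depleted one. For Kcnq1ot1, over 6 peaks, they were Aldh16a1, an aldehyde dehydrogenase family member, Pnkd, and Zdhhc14, a palmitoyltransferase, with medians of -3.66, -3.46 and -3.37 in the authors' deposited table. Aldh16a1 had all 6 peaks depleted, and Pnkd and Zdhhc14 had 4 each, as many as Kcnq1ot1. For Gnas, over 14 peaks, Fstl1, a secreted glycoprotein, Sptan1, the alpha chain of spectrin, and Nedd4, a ubiquitin ligase, had medians of 0.75, 1.21 and 0.55 in the authors' deposited table. Fstl1 had 1 enriched peak, and Sptan1 and Nedd4 had 3 each, more than Gnas. Each of these likenesses rests on 1 comparison.

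In the rest of the Dlk1-Dio3 domain 4 of 6 listed genes had peaks, and none of their 18 peaks was called. With 2.22% of all peaks enriched and 5.44% depleted, a count of 0 among so few peaks is near the background. Rian, the noncoding RNA that follows Meg3 on the same strand, had 11 peaks from -2.35 to 1.47 with a median of -0.27 per the authors' deposited table. Mirg, the next noncoding RNA, had 2 peaks at -1.38 and -1.92, and Rtl1, a retrotransposon-derived coding gene on the opposite strand, had 4 from -0.24 to 0.98, in the authors' deposited table. Dlk1, the paternally expressed growth regulator, had 1 uncalled peak at -0.69 in the authors' deposited table. Among Meg3 and the listed genes of this domain, the enriched calls are thus those of Meg3.

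In the Kcnq1 domain, which Kcnq1ot1 is known to silence in part, 5 of 12 listed genes had peaks, and 6 of 27 peaks were depleted (22.2%, beside 5.44% of all peaks) and none enriched (beside 2.22%). The depleted peaks came from 3 genes, 4 of them from 1 gene, and 0 enriched of 27 is near the background. Nap1l4, a nucleosome assembly protein gene, had 4 of 7 peaks depleted, the best at -3.92 in the authors' deposited table (adjusted p = 7.1e-06). Cd81, a tetraspanin gene, had 1 of 11 depleted, at -3.01 in the authors' deposited table (adjusted p = 8.7e-04), and Kcnq1 had the 1 described above. Osbpl5 and Tnfrsf23 had no called peak. Around Gnas, 5 of 8 listed neighbours had peaks, and none of their 21 peaks was called, again near the background, with a median of -0.32 per the authors' deposited table. Ctsz, a lysosomal protease gene, had the highest median of these neighbours, 0.29 over 9 peaks in the authors' deposited table.

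Imprinted genes elsewhere had calls in both directions. Of 45 listed, 24 had peaks, with 4 of 149 peaks enriched (2.68%, beside 2.22% of all peaks) and 2 depleted (1.34%, beside 5.44%). An enriched peak occurred in 3 of the 24 genes (12.5%, beside 5.04% of all gene names). A depleted peak occurred in 2 of them (8.33%, beside 17.3%). Airn, a long antisense RNA that silences Igf2r in cis as Kcnq1ot1 silences its own neighbours, had 2 of 20 peaks enriched, at 3.59 (adjusted p = 4.6e-07) and 2.63, in the authors' deposited table. Its median of 0.54 and that of Kcnq1ot1, -3.56, stand on opposite sides of 0 in the authors' deposited table, a difference not tested. Igf2r, the receptor that clears insulin-like growth factor 2, had 1 of 20 enriched at 2.70 in the authors' deposited table (adjusted p = 3.3e-04). The noncoding RNA Peg13 had 1 of 3 enriched at 3.79 in the authors' deposited table (adjusted p = 4.6e-04). Copg2 and Trappc9 each had 1 depleted peak, of 12 and 31, at -3.78 and -3.34 in the authors' deposited table (adjusted p = 0.0013 and 0.013).

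Counted together, these 4 lists had 71 genes, 38 with a peak, and 4 of their 215 peaks were enriched (1.86%) and 8 depleted (3.72%), beside 2.22% and 5.44% of all peaks. Their median log2 fold change was -0.57 in the authors' deposited table. At least 1 enriched peak occurred in 3 of the 38 genes and at least 1 depleted peak in 5, beside 5.04% and 17.3% of all gene names. As shares of peaks both kinds of call were under the background. The share of genes with an enriched peak was above it, and that with a depleted peak under it. All these counts are small, and no difference from the background was tested or is read from them.

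**Figure D3:**
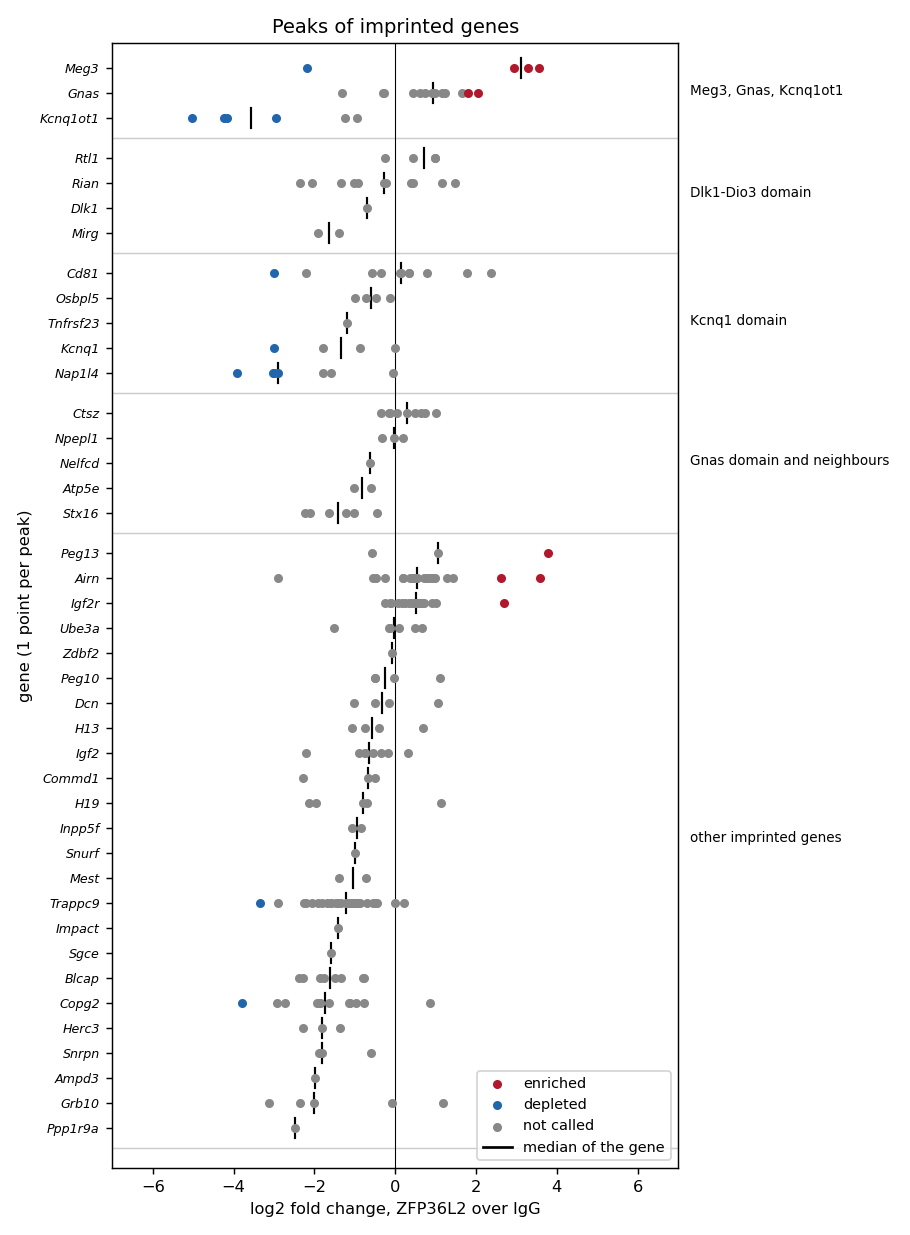
Log2 fold change of ZFP36L2 over IgG (horizontal axis) of every peak of Meg3, Gnas, Kcnq1ot1 and the 38 other listed genes with a peak (vertical axis, grouped by list). Points are peaks, red where enriched, blue where depleted and grey where not called, and black bars are medians per gene. Meg3 at 3.12 has the highest median and Kcnq1ot1 at -3.56 the lowest of the genes drawn.

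Of the other G protein subunits, the adenylyl cyclases and their regulators, 23 of 36 listed genes had peaks. Enriched peaks occurred in 1 of them and depleted ones in 3, beside 5.04% and 17.3% of all gene names. Of their 169 peaks 7 were enriched (4.14%) and 3 depleted (1.78%), beside 2.22% and 5.44% of all peaks. Gng12, a gamma subunit gene, was enriched in 7 of 20 peaks and depleted in 1, with the best supported at 3.61 in its 5′ UTR in the authors' deposited table (adjusted p = 4.4e-16). Gnb5, a beta subunit gene, and Gna12, an alpha subunit gene, each had 1 depleted intronic peak, at -3.06 and -3.13 in the authors' deposited table (adjusted p = 0.04 and 0.049). Among other alpha subunits, Gnai2, which inhibits adenylyl cyclase, had 15 peaks with a median of 0.04, and Gnaq 5 with -0.26, none called, in the authors' deposited table. The 5 adenylyl cyclase genes with peaks, Adcy3, Adcy5, Adcy6, Adcy7 and Adcy9, had 8, 9, 13, 4 and 25 of them. None of these peaks was called, a difference from the shares of all peaks that was not tested. Their medians ranged from -1.57 to -0.88 in the authors' deposited table.

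Long noncoding RNAs other than Meg3 and Kcnq1ot1 showed both directions. Of 19 listed, 13 had peaks, 2 of them with an enriched peak (15.4%, beside 5.04% of all gene names) and 3 with a depleted one (23.1%, beside 17.3%). Of their 119 peaks 46 were enriched and 5 depleted, beside 2.22% and 5.44% of all peaks. Neat1, the paraspeckle scaffold, held 44 of the 46 enriched peaks and Airn the other 2. All 44 Neat1 peaks were enriched, and its median of 3.98 was above the 3.12 of Meg3 in the authors' deposited table. Ftx and Jpx, noncoding RNAs of the X inactivation centre, had 2 of 3 peaks depleted each, the best at -3.61 and -3.70 in the authors' deposited table (adjusted p = 0.0012 and 0.0021), and Dleu2 had 1 of 9. The lowest medians of this list, -3.09 for Ftx and -2.83 for Jpx in the authors' deposited table, were above the -3.56 of Kcnq1ot1.

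The labelled cell type was checked by which markers had any peak. Leydig cell markers had peaks in 5 of 9 (Cyp11a1, Star, Lhcgr, Nr5a1 and Prlr), with Cyp17a1, Hsd3b1, Insl3 and Hsd17b3 without one. Sertoli cell markers had peaks in 1 of 5, germ cell markers in 1 of 3 and macrophage markers in 4 of 4. The gene name with the most peaks, looked up after the values were seen, was Ttn, the giant protein of the muscle sarcomere, with 566. A peak is not a measure of expression, and what part RNA of other cell types has in the calls above was not tested.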

How the data were processed

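The submitters' processing notes name build mm10 and the tools STAR 2.7.7a, DESeq2 1.34.0, cutadapt 3.2 and UMI-tools 1.1.1, with no role. For peak calling, pooling, the use of inputs and normalization, the settings were not given in the sources used here. Per the file headers, the authors deposited 1 row per peak with a log2 fold change and, as −log10 values, its p-value and adjusted p-value, which were converted back. A Benjamini-Hochberg adjustment over all peaks differed from the deposited one by at most 0.0099 (−log10). The IgG arm has 1 library, and nothing says that libraries came from separate cultures, so any spread behind the p-values may be technical.

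Calls were counted with Python 3.11.15 and pandas 2.3.3, and the counting was tested on simulated data. No test was added: the planned tests of counts had no counts to use, and the planned motif search was not made because no genome sequence was used here. None of the 24 peaks overlaps the promoter or microRNA sequences used here from RefSeq. Coordinates are 1-based. The rule for named genes took Meg3, Kcnq1ot1 and Gnas with every peak, up to 4 genes per list by adjusted p of called peaks, and 3 most similar names per gene. Trappc9, Dleu2, uncalled genes and the microRNA peaks were named with their values known. The genes and lists were chosen with earlier results of these data known. Alternatives were an adjusted p of 0.01, a log2 fold change of 2 or none, centring on the median, merged peaks, single-name peaks and, added later, microRNA peaks counted with Meg3.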

Additional observations from a re-analysis of the deposited data

How the results depend on the processing

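There were 58 alternative values for the counts and medians of Meg3, Kcnq1ot1 and Gnas. Of these, 52 stayed within 1.5 times (counts) or 0.1 on the log2 scale (medians). Only a median could change sign, and none did. The setting of single-name peaks could change nothing, since none of the 24 peaks carried a further gene name. The depleted count of Meg3 went from 1 to 0 at an adjusted p under 0.01. Its enriched count went from 3 to 5 with the microRNA-named peaks in its span counted, a setting added once the values were known. The enriched count of Gnas went from 2 to 1 when log2 fold changes had to reach 2. Centring on the median of all peaks, a shift of 1.06 upward, gave medians of 4.18 for Meg3, -2.50 for Kcnq1ot1 and 1.99 for Gnas. The number of calls of each kind stayed the same in each gene. The adjusted p-values were kept as deposited, without centring. A peak with an adjusted p of 0.05 or more could therefore not gain a call, and whether calls would hold with centred p-values was not tested. No paired analysis was possible because the table holds no values of single libraries. For the same reason no library could be left out, and the alternatives that need counts were not run. Depth per peak is unknown, so a peak that was not called is not shown to be without a difference.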
